A study of Arabidopsis thaliana with 24 samples.

Results

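Seedlings labelled atx4/5;jmj24, for mutations in ATX4, ATX5 and JMJ24, were compared with wild-type Col-0 seedlings across all genes with a signal. The members were the genes with a normalised read count of at least 1 in 2 or more of the 6 libraries of 1 deposited table, 23740 of the 32548 genes listed. The genotypes used were atx4(-/-);atx5(-/-);jmj24(-/-), jmj24(-/-) and wild-type Col-0, with 2 libraries each (Col-0 replicates 3 and 4), all from whole seedlings 11 days old. A separate table gave atx4/5 (the atx4(-/-);atx5(-/-) genotype) and its own Col-0 (replicates 1 and 2), again with 2 libraries each. The plants grew on MS agar plates in long days (16 h of light, 8 h of dark), and total RNA was extracted. The series holds 24 libraries of 10 genotypes. The libraries labelled atx4/5;jmj24 are called the triple mutant after that label, although ATX5, given below, was not lower in them than in Col-0. The labels do not give the alleles, the positions of the mutations in the genes or whether replicates came from separate plantings, so the p-values rest on how far these libraries spread, which may be technical. In whole seedlings, fewer cells of a type and less RNA per cell cannot be told apart.

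COMPASS complexes methylate lysine 4 of histone H3, a mark found at the start of transcribed genes, and ATX4 and ATX5 encode a closely related pair of trithorax-type methyltransferases of plants. JMJ24 encodes a JmjC-domain protein of the family that includes IBM1, the histone H3 lysine 9 demethylase that keeps DNA methylation out of gene bodies. In Arabidopsis, DNA methylation is set in part by the RNA-directed pathway, in which RNA polymerase IV makes precursors of small RNAs, and it is removed by DNA glycosylases such as ROS1 and DML2.

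The estimated depth of the 6 libraries was 24100000 to 29000000 reads. Across genes, Pearson's r of the log2 values was 0.987 between the triple mutant replicates and 0.986 between the Col-0 replicates, and 0.979 to 0.98 between libraries of those genotypes. On the first principal component, with 33.4% of the variance, the triple mutant libraries were at 33.7 and 38.4, the jmj24 libraries at 10.1 and 12.3, and the Col-0 libraries at -48.1 and -46.4. Of the targeted genes, ATX4 was 129.2 in the triple mutant on average and JMJ24 273.8, both called lower than in Col-0. ATX5 had 517.5 and 637.9 in the triple mutant, against 433.5 and 475.9 in Col-0 (log2 difference 0.34 ± 0.10 SE, adjusted p = 0.0701 in limma), so it was not lower than in Col-0. In atx4/5 it had 237.2 and 223.7, against 472 and 546.8 in that table's Col-0, and was called lower (log2 difference -1.14, adjusted p = 1.72e-04). In jmj24 it had 819.1 and 813 and was called higher than in Col-0 (log2 difference 0.84, adjusted p = 0.00115). Both triple mutant libraries were below both jmj24 libraries, but ATX5 was not called between them (log2 difference -0.505 ± 0.10 SE, adjusted p = 0.051). Beside Col-0, the ATX5 part of the label atx4/5;jmj24 is therefore not borne out by the gene's level, which lay between Col-0 and jmj24. Each result given for the triple mutant is one of the libraries so labelled. A sum over the whole gene does not separate full transcripts from ones that end at a mutation.

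Between the triple mutant and Col-0, 760 genes (3.2% of those tested) were called higher and 1071 (4.51%) lower at an adjusted p under 0.05, 7.71% in all. The 2 groups of libraries did not overlap in any of the 1831, as in 50.6% of all genes tested. Falls were also larger than rises. Of the called genes, 346 were at least 2-fold lower and 115 at least 2-fold higher, with medians on the log2 scale of -0.63 among those lower and 0.47 among those higher. The balance rests on scaling. With columns scaled to equal totals, 52.7% of 1964 called genes were higher, against 41.5% of 1831 as deposited. Leaving out triple mutant replicate 2 gave 889 calls and leaving out Col-0 replicate 3 gave 1006. The mean-variance trend, by which the model takes a gene's spread from genes of like level, mattered most, with 209 calls without it. Of the 1831 genes, 588 were called without any 1 library, 199 of them higher and 389 lower, and 132 of these also without the trend. Among the genes named by rule these were ATX4, JMJ24, QQS, HOL2, TRFL8, scpl23, SEP4, FRUCT5, ELF4-L3, DML2, NRPD1, IDN2, PRR3, PCC1 and KIN1. Of the 81 calls of genes named by rule, 65 were lost without the trend, at adjusted p from 0.0545 to 0.245.

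**Figure D1:**
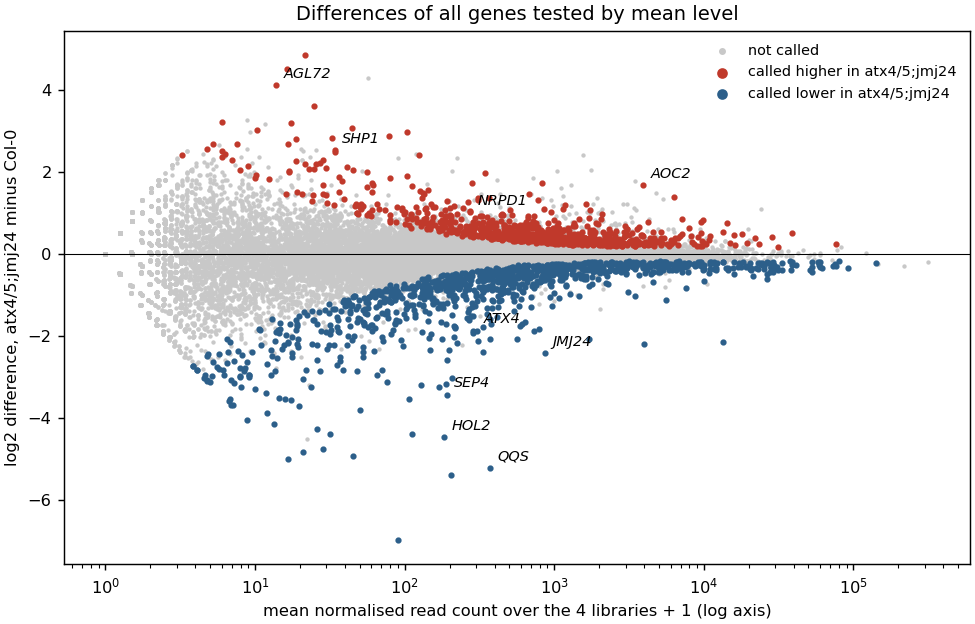
Each point is 1 of 23740 genes, with the mean normalised read count of the 2 atx4/5;jmj24 and 2 Col-0 libraries plus 1 on a log axis (across) and the log2 difference, atx4/5;jmj24 minus Col-0 (up). Red points are the 760 genes called higher and blue points the 1071 called lower; the lower ones reach further from 0, and HOL2 and QQS lie below -4.

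The deepest falls were in genes that Col-0 seedlings expressed at a moderate level and triple mutant seedlings hardly at all. QQS, an orphan gene that affects starch content, had 17.05 and 19.33 normalised read counts in the triple mutant, against 788.9 and 652.5 in Col-0. HOL2, a methyltransferase gene of the HARMLESS TO OZONE LAYER family, had 21.05 and 10.22 in the triple mutant and 383.8 and 318.7 in Col-0. The groups were far apart in both, and QQS fell by 5.23 ± 0.22 on the log2 scale (SE, adjusted p = 2.06e-07) and HOL2 by 4.48 ± 0.29 (adjusted p = 1.53e-05). The jmj24 libraries, at 26.33 and 29.75, were near the triple mutant for QQS. For HOL2 they lay between the other genotypes, at 100.2 and 92.66.

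SEP4, a MADS-box gene of floral organ identity, had 31.09 and 31.54 in the triple mutant, against 343.5 and 354.9 in Col-0. It fell by 3.44 ± 0.19 (adjusted p = 3.51e-06), and jmj24 had 50.63 and 53.18. FRUCT5, of the cell wall invertase family that splits sucrose, had 21.07 and 27.45 in the triple mutant and 199.6 and 263.1 in Col-0. The groups of both genes were apart by more than the spread within each.

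TRFL8, a Myb-type DNA-binding gene, fell by 3.81 ± 0.37, and scpl23, a serine carboxypeptidase-like gene, had a log2 difference of -3.555 ± 0.57. ELF4-L3, a relative of the clock gene ELF4, fell by 3.05 ± 0.44. BAM6, a beta-amylase gene, fell by 3.54 ± 0.33 and SDR2 (AT2G24190), a short-chain dehydrogenase gene, by 2.97 ± 0.34. CBL7, which encodes a calcium sensor, was at 0 in both triple mutant libraries. In Col-0 it had 13.63 and 9.085, so it was at least 3.75-fold lower in the triple mutant, with a floor of 3 reads per library. Its call was lost without Col-0 replicate 3 (adjusted p = 0.0608).

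Some of the largest differences were in genes without a symbol, named here after their values were seen. AT1G64795 had 1.002 and 0.002183 in the triple mutant and 3.032 and 1.095 in jmj24, against 189.7 and 165.4 in Col-0 (log2 difference -6.97 ± 0.55 SE, adjusted p = 2.56e-05). Values just above 0 stand for no reads after the authors' adjustment. AT3G05945, annotated as a long non-coding RNA, had 8.024 and 9.155 in the triple mutant, against 426 and 375.1 in Col-0 (log2 difference -5.39 ± 0.18 SE, adjusted p = 3.89e-08). Unlike AT1G64795, it stayed high in jmj24, at 402 and 458.4. AT3G10510 was the largest rise, with 30.1 and 51.82 in the triple mutant, 19.25 and 22.31 in jmj24, and 0 and 1.007 in Col-0 (log2 difference 4.84 ± 0.52 SE, adjusted p = 2.09e-04). Of 959 long non-coding and antisense genes tested, 41 (4.28%) were called lower and 5 (0.521%) higher. That share of falls is near the 4.51% of all genes, and 37 of the 41 were at least 2-fold. Size of fall goes with level here, since in the 25% of genes with the lowest mean level all 141 called falls were at least 2-fold, so nothing is read from these 37 about non-coding genes. Without stated strand use in counting, reads of antisense and overlapping genes cannot be assigned with certainty.

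MADS-box genes were among both the largest rises, with SHP1, PI, AGL72, AGL58 and FLC (given below), and the largest falls, with SEP4. AGL58 rose by 2.68 ± 0.53 on the log2 scale (SE, adjusted p = 0.00935). Its call was lost without the trend (adjusted p = 0.139 in limma). The difference was 1.99 without Col-0 replicate 3 and 2.46 without triple mutant replicate 2, and the call did not hold in either fit. SHP1, a MADS-box gene of carpels and fruit valve margins, had 64.18 and 49.91 in the triple mutant, against 9.957 and 8.071 in Col-0. PI, which specifies petals and stamens, had 67.18 and 46.87 in the triple mutant, against 13.7 and 6.065 in Col-0. SHP1 rose by 2.53 ± 0.36 on the log2 scale (SE, adjusted p = 0.00123) and PI by 2.49 ± 0.42 (adjusted p = 0.00371), and neither gene's groups overlapped. In jmj24, SHP1 had 36.42 and 23.58 and was called higher than in Col-0 (log2 difference 1.605, adjusted p = 0.035). PI had 23.31 and 32.86 there and was not called (1.49, adjusted p = 0.0909). Neither gene was called between the triple mutant and jmj24. AGL72, a MADS-box gene of the SOC1 clade, had 34.09 and 16.34 in the triple mutant, 0.004764 and 3.145 in jmj24, and 0 and 1.007 in Col-0. It rose by 4.12 ± 0.79, but the call was lost without Col-0 replicate 3 (adjusted p = 0.0634) or triple mutant replicate 1 (0.087).

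CNGC18, a cation channel gene of pollen tubes, rose by 2.09 ± 0.37, and LEA7, a late embryogenesis abundant protein gene, by 1.88 ± 0.31. SQP2, a squalene monooxygenase-like gene, rose by 1.99 ± 0.32. SOM, a zinc-finger gene that restrains seed germination, rose by 2.79 ± 0.55, and CASP5, a Casparian strip protein gene of the root endodermis, by 2.19 ± 0.39. The call of SOM was lost without Col-0 replicate 3 (adjusted p = 0.0571) or triple mutant replicate 2 (0.083), and that of CASP5 without triple mutant replicate 2 (0.0671). LpxC1, a lipid A biosynthesis-type gene, had 135.4 and 229.8 in the triple mutant, against 35.67 and 13.15 in Col-0 (adjusted p = 0.00818). The related LpxC3 had 15.04 and 7.154 in the triple mutant and 47.1 and 36.32 in Col-0. These are near-identical tandem copies, so how reads were divided among them is uncertain.

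**Figure D2:**
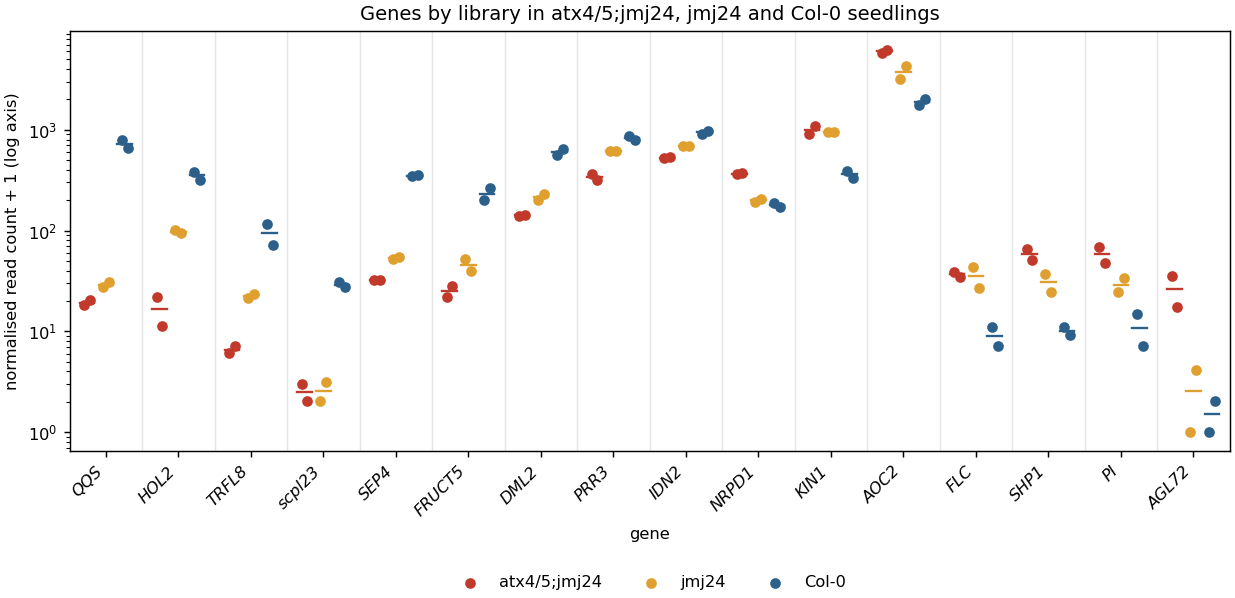
Normalised read count plus 1 on a log axis for 16 genes, with 1 point per library and a bar at the mean of the 2 libraries, for atx4/5;jmj24 (red), jmj24 (orange) and Col-0 (blue). In QQS, SEP4 and scpl23 the jmj24 points lie near atx4/5;jmj24, in HOL2 and PRR3 between the other genotypes, and in NRPD1 and AGL72 near Col-0.

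Among genes of the chromatin and DNA methylation machinery, DML2, IDN2 and CLSY2 fell and NRPD1 rose. Of 15 DNA methylation and demethylation enzymes 2 were called lower and none higher, with 5 at an unadjusted p under 0.05. Of 12 H3K4 methyltransferase and COMPASS subunit genes, ATX4 was the 1 called, and the median difference was 0.02, beside -0.002 for all genes tested. DML2, which removes methylated cytosine from DNA, had 139.4 and 142.5 in the triple mutant, against 558.8 and 643.3 in Col-0. It fell by 2.08 ± 0.13 on the log2 scale (SE, adjusted p = 3.97e-06), and jmj24 had 198.5 and 228.6. Its relative ROS1 had 1223 and 1149 in the triple mutant, against 1460 and 1510 in Col-0 (log2 difference -0.33 ± 0.06 SE, adjusted p = 0.00973), a call lost without Col-0 replicate 4 (0.061) or triple mutant replicate 2 (0.0874). IBM1 had 534.6 and 516.9 in the triple mutant, against 753.3 and 706.9 in Col-0. It fell by 0.47 ± 0.08 (adjusted p = 0.00386) and was the other called member, beside JMJ24, of the 6 genes of its family. Of 9 H3K4 demethylase genes JMJ16 was the 1 called with a log2 difference of -0.35, a call lost without either Col-0 library or either triple mutant library (adjusted p = 0.0598 to 0.094). None of 13 Polycomb and H3K27 demethylase genes and none of 8 INO80, SWR1 and H2A.Z genes was called in limma, with 1 and 3 at an unadjusted p under 0.05.

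In RNA-directed DNA methylation, 3 of 20 genes were called higher and 2 lower (8 at an unadjusted p under 0.05), with a median of 0.05. Beside these 5 calls of 20, 7.71% of all genes were called. NRPD1, the largest subunit of RNA polymerase IV, had 362.1 and 368.4 in the triple mutant, against 188.7 and 171.4 in Col-0. It rose by 1.02 ± 0.12 (SE, adjusted p = 4.48e-04), and jmj24, with 189.4 and 206.3, was nearer to Col-0. IDN2, an RNA-binding protein of the pathway, had 528.5 and 531.2 in the triple mutant, against 903.5 and 975.1 in Col-0, and fell by 0.82 ± 0.08 (adjusted p = 6.68e-05). CLSY2, a remodeller that brings polymerase IV to its sites, fell by 2.83 ± 0.42 (adjusted p = 0.00167). The effector AGO4 and its germline relative AGO9 were called higher, AGO4 by 0.29 ± 0.06 and AGO9 by 2.21 ± 0.43. Those calls were lost without triple mutant replicate 2, at adjusted p = 0.105 for AGO4 and 0.0757 for AGO9, and that of AGO4 also without Col-0 replicate 3 (0.124) or triple mutant replicate 1 (0.0635).

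FLC, the MADS-box repressor of flowering, had 38.11 and 33.6 in the triple mutant, against 10.01 and 6.059 in Col-0. It rose by 2.06 ± 0.40 on the log2 scale (SE, adjusted p = 0.00851), with 42.48 and 25.75 in jmj24, but the call was lost without triple mutant replicate 1 (adjusted p = 0.0526). Its target FT, the mobile flowering signal, had 52.15 and 45.81 in the triple mutant and 68.91 and 48.43 in Col-0, with overlapping spread (adjusted p = 0.683). Of 13 flowering promoters, 2 were called lower, beside 4.51% of all genes, and none higher, with a median of -0.19. These were FUL, with 42.11 and 24.48 in the triple mutant and 90.01 and 101.8 in Col-0, and AGL24, with 67.2 and 78.32 in the triple mutant and 140.1 and 120 in Col-0. Each of these 2 calls was lost without Col-0 replicate 3, Col-0 replicate 4 or triple mutant replicate 2, at adjusted p of 0.0567, 0.0778 and 0.0911 for FUL and 0.2, 0.0822 and 0.0949 for AGL24. The AGL24 call was also lost without triple mutant replicate 1 (0.166).

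Of 16 circadian clock genes, 3 were called lower, beside 4.51% of all genes, with a median of the list of -0.15. All 3 were of the pseudo-response regulator family, and the count was 1 without the trend. PRR3 had 365 and 313.5 in the triple mutant, against 857.1 and 794.6 in Col-0, and fell by 1.28 ± 0.09 (SE, adjusted p = 1.53e-05). PRR7 had 93.27 and 91.59 in the triple mutant, against 176 and 164.4 in Col-0, and TOC1 had 3233 and 2860 in the triple mutant, against 4155 and 3667 in Col-0. The groups did not overlap in any of these. The calls of PRR7 and TOC1 were lost without Col-0 replicate 3 (adjusted p = 0.0749 and 0.093) or triple mutant replicate 2 (0.0642 and 0.104). The labels do not give the hour of harvest.

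**Figure D3:**
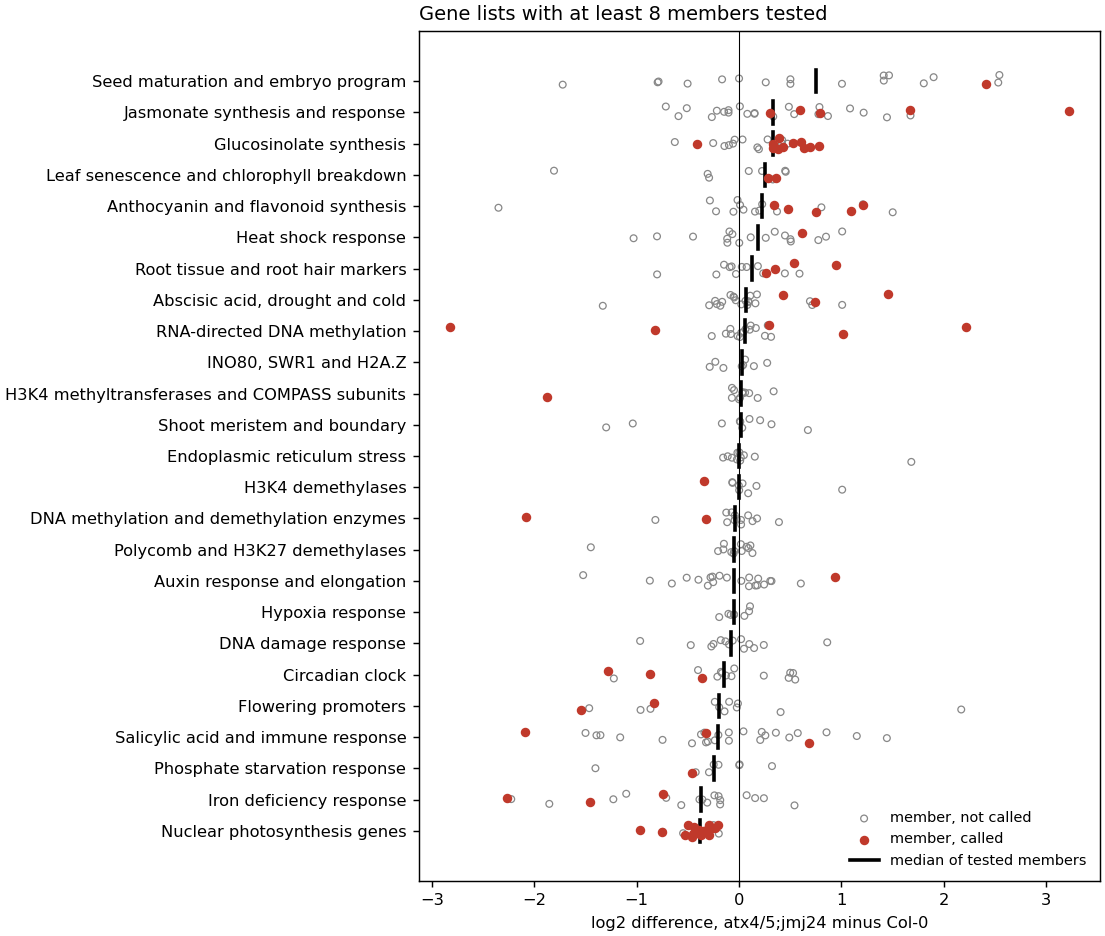
Log2 difference, atx4/5;jmj24 minus Col-0, of each tested member (points) in the 25 lists with at least 8 members tested, ordered by the median (black bar). Filled points are called members; the photosynthesis list lies wholly below 0, and called glucosinolate members lie above 0 except MYB34.

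The most uniform change was in nuclear photosynthesis genes, of which 21 of 26 were called lower and none higher, beside 4.51% of all genes called lower. All 26 had a negative difference, with a median of -0.38 on the log2 scale. The changes were small and were met in each group of genes in the list. Of the light-harvesting protein genes 10 of 13 were called (median -0.46), of the photosystem I subunits 5 of 5 (-0.39), of the oxygen-evolving proteins of photosystem II 3 of 3 (-0.30), and of the Rubisco small subunits with Rubisco activase 3 of 5 (-0.25). LHCA3, an antenna protein of photosystem I, had 17690 and 17310 in the triple mutant, against 26090 and 24530 in Col-0. PSAD-1, a photosystem I subunit, had 23270 and 23740 in the triple mutant, against 31870 and 31820 in Col-0. The groups of both were apart, and LHCA3 fell by 0.53 ± 0.05 (SE, adjusted p = 1.03e-04) and PSAD-1 by 0.44 ± 0.05 (adjusted p = 2.12e-04). LHCA4 fell by 0.50 ± 0.06 and PSBP-1, of the oxygen-evolving complex, by 0.45 ± 0.05.

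The summed level of the 26 genes was 1307622 and 1353052 in the triple mutant, 1557127 and 1542325 in jmj24, and 1614330 and 1631201 in Col-0. Reads of the LHCB1 and RBCS copies are uncertain, since those copies are near identical. The count of 21 was 12 after quantile normalization, 20 with equal totals and 15 to 21 without 1 library, and 0 without the trend, which sets the spread of these highly expressed genes. The median remained negative with equal totals, at -0.35. In jmj24 against Col-0, 3 of the 26 were called lower with a median of -0.10, and in atx4/5 against its own Col-0 none was called in limma (5 at an unadjusted p under 0.05), with a median of 0.03. The Col-0 libraries of the 2 tables differed widely in this list and in clock genes, with LHCA4 at 18490 and 18620 here and 221800 and 206300 there, and PRR7 at 176 and 164.4 here and 4915 and 5199 there. The atx4/5 values are therefore set beside these only as those of another experiment. The summed root markers were 8118 and 8174 in the triple mutant, 8850 and 8884 in jmj24, and 7213 and 7708 in Col-0. None of the 16 was at 0, and 4 were called higher in the triple mutant than in Col-0, beside 3.2% of all genes. These 4 included PRP3 and PRP1, cell wall protein genes of root hairs. The count of 4 was 0 without the trend, and 4 root markers were called higher in jmj24 than in Col-0. The summed shoot meristem markers were 3499 to 3515 in the triple mutant and 3472 to 3881 in Col-0, and none of 10 tested was called in limma or had an unadjusted p under 0.05. The summed seed genes were 415 and 290 in the triple mutant, 1244 and 464 in jmj24, and 230 and 249 in Col-0, where 8 of the 21 listed were at 0. The part of tissue make-up in the photosynthesis result was not tested.

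**Figure D4:**
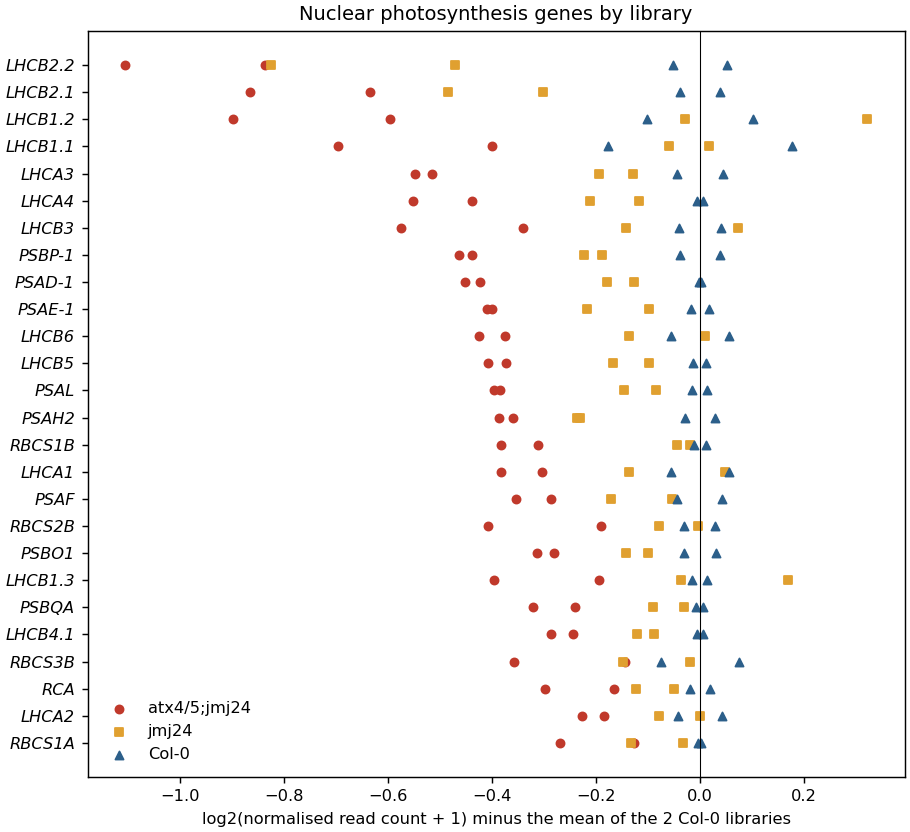
Log2 level of 26 nuclear photosynthesis genes in each library minus the mean of the 2 Col-0 libraries, for atx4/5;jmj24 (red circles), jmj24 (orange squares) and Col-0 (blue triangles). Both atx4/5;jmj24 libraries lie below both Col-0 libraries in the 26 genes, and in 16 genes both jmj24 libraries lie between those groups. Over all genes tested the same orders were met in 25.6% and 4.97%.

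Promoters of this list were searched for 5 motifs, and 1 example is shown of each of the 2 that are known from light-regulated genes. In the 250 bases before the annotated gene start (RefSeq annotation of TAIR10.1, both strands searched), the G-box CACGTG was in 6 of 26 (23.1%), against 6.98% of 23736 tested genes with such a window. The I-box core GATAAG was in 8 of 26 (30.8%), against 12.4%. The jasmonate list, whose called members were higher, had like shares, 6 of 27 (22.2%) for the G-box and 8 of 27 (29.6%) for the I-box core. Across all called genes the I-box core was in 15.5% of those lower and 10.9% of those higher, and the G-box in 7.84% of those lower and 7.63% of those higher. The W-box core TTGAC was in 6 of 26 (23.1%), against 45.1% of all. The evening element AAAATATCT and the telo-box AAACCCTA were in none of the 26, against 2.38% and 3.78% of all. These are matches of letters and do not show binding. Capitals mark the motif, and both promoters are on the minus strand, LHCA4 at chr3:17495034-17495283 and PSAD-1 at chr4:1230165-1230414.
LHCA4: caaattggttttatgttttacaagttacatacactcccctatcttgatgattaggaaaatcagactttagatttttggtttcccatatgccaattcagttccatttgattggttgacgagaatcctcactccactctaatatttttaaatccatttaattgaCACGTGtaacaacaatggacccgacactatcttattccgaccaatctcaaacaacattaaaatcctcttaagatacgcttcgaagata
PSAD-1: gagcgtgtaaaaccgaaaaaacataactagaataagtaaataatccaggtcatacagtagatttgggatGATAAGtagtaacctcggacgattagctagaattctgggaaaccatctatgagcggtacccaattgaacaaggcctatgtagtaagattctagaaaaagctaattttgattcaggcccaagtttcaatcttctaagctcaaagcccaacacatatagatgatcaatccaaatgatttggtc

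Jasmonate, a hormone of wounding and defence, had 5 of 27 synthesis and response genes called higher and none lower, with a median of 0.33, beside 3.2% of all genes called higher. AOC2, the allene oxide cyclase of jasmonate synthesis, had 5843 and 6152 in the triple mutant, against 1756 and 2029 in Col-0. AOS, the enzyme of the preceding step, had 5037 and 5745 in the triple mutant, against 3205 and 3032 in Col-0. AOC2 rose by 1.67 ± 0.16 on the log2 scale (SE, adjusted p = 0.0105) and AOS by 0.79 ± 0.07 (adjusted p = 8.18e-05), and the groups of both were apart. In atx4/5 against its own Col-0 the differences were 0.89 for AOC2 and 0.44 for AOS, both called. In jmj24 against Col-0, which shares the Col-0 libraries, they were 0.98 for AOC2 (adjusted p = 0.0784) and 0.58 for AOS (0.0014), and the list's median was 0.36 with 1 gene called. The other 3 called genes were the repressors JAZ6 and JAZ2 and the defensin PDF1.2A, which was at 0 in both Col-0 libraries and had 16.04 and 4.113 in the triple mutant, at least 3.54-fold higher. AOS was the 1 call of the 5 that held without any 1 library. Those of JAZ2 and PDF1.2A were each lost without 5 of the 6 libraries (adjusted p up to 0.268 and 0.313) and that of JAZ6 without 3, namely Col-0 replicate 3 (0.163), Col-0 replicate 4 (0.0526) and triple mutant replicate 2 (0.108). That of AOC2 was lost without Col-0 replicate 3 (adjusted p = 0.062), triple mutant replicate 1 (0.072) or triple mutant replicate 2 (0.0951). The count of 5 was 1 to 5 without 1 library and 0 without the trend.

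Glucosinolates, the sulfur-rich defence compounds of the cabbage family, had 10 of 24 synthesis genes called higher and 1 lower, with a median of 0.33. Over all genes tested, 3.2% were called higher and 4.51% lower. BCAT4, MAM1, CYP79F2 and FMOGSOX1 act on methionine-derived glucosinolates, from chain elongation to side-chain oxidation, and CYP79B3 acts on tryptophan-derived ones. BCAT4 had 3739 and 3680 in the triple mutant, against 2652 and 2228 in Col-0, and rose by 0.61 ± 0.08 (SE, adjusted p = 0.00182). FMOGSOX1 had 402.2 and 398.9 in the triple mutant, against 259.1 and 236 in Col-0, and rose by 0.69 ± 0.10 (adjusted p = 0.0016). FMOGSOX1 was as high in jmj24, at 396.9 and 403.3, as in the triple mutant. Over the list, 7 of the 24 genes were called higher in jmj24 than in Col-0, with a median of 0.25. None was called between the triple mutant and jmj24 in limma (3 at an unadjusted p under 0.05), with a median of 0.02. MYB34, an activator of the tryptophan branch, was the 1 called lower, with 460.3 and 445.7 in the triple mutant and 597 and 611.1 in Col-0. The count of 10 was 12 with equal totals and 5 to 10 without 1 library, and 0 without the trend. The MYB34 call was lost without Col-0 replicate 3 (adjusted p = 0.0576), Col-0 replicate 4 (0.0695) or triple mutant replicate 2 (0.0864).

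Flavonoid synthesis had 5 of 19 genes called higher and none lower, with a median of 0.23, beside 3.2% of all genes called higher. CHS, chalcone synthase at the head of the pathway, had 8152 and 8411 in the triple mutant, against 5555 and 6391 in Col-0, and rose by 0.48 ± 0.06 (SE, adjusted p = 8.76e-04). The anthocyanin-decorating genes 5MAT and UF3GT rose by 1.21 ± 0.28 and 1.09 ± 0.26, with calls lost without Col-0 replicate 3 (adjusted p = 0.109 and 0.137), triple mutant replicate 1 (0.0912 and 0.0697) or triple mutant replicate 2 (0.112 and 0.169). The count of 5 was 7 with equal totals, 1 to 6 without 1 library and 0 without the trend.

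Of 24 abscisic acid, drought and cold genes, 3 were called higher, beside 3.2% of all genes, and none lower, with a median of 0.07. The count of 3 was 1 without the trend. KIN1, a cold-induced gene, had 900.6 and 1080 in the triple mutant, 953.8 and 953.5 in jmj24, and 388.2 and 331.8 in Col-0. It rose by 1.46 ± 0.10 (SE, adjusted p = 1.53e-05), though reads may be shared with KIN2, a closely similar neighbouring gene. RD22 rose by 0.43 ± 0.07, a call lost without triple mutant replicate 2 (adjusted p = 0.0566), and RD20 by 0.74 ± 0.17, a call lost without either Col-0 library or either triple mutant library (0.129 to 0.199). OST1, the kinase that relays the abscisic acid signal and was named after its values were seen, had 900.6 and 1065 in the triple mutant and 655.7 and 651.4 in Col-0, and rose by 0.58 ± 0.09 (adjusted p = 0.00182).

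Salicylic acid and immune genes did not move together, with 1 of 27 called higher, 2 called lower and a median of -0.20. Over all genes tested, 3.2% were called higher and 4.51% lower. PCC1, a gene under pathogen and clock control, had 602.8 and 707.1 in the triple mutant, against 2858 and 2708 in Col-0, and fell by 2.09 ± 0.11 (SE, adjusted p = 1.18e-05). In jmj24 it was lower still, at 214.7 and 267.8. The other called genes were PR5, higher by 0.69 on the log2 scale, and the salicylic acid receptor gene NPR4, with a difference of -0.32. The PR5 call was lost without 5 of the 6 libraries (adjusted p up to 0.195) and that of NPR4 without Col-0 replicate 3 (0.0559) or triple mutant replicate 2 (0.0713). PR1, the usual marker of this response, varied from library to library, with 99.25 and 23.61 in the triple mutant and 4.603 and 58.38 in Col-0 (adjusted p = 0.681). GH3.3, an auxin-conjugating enzyme gene, was the 1 called of 22 auxin genes, with 263.8 and 262.5 in the triple mutant and 113 and 166.3 in Col-0. Its call was lost without Col-0 replicate 3 (adjusted p = 0.0899), triple mutant replicate 1 (0.0682) or triple mutant replicate 2 (0.0886). HSP90.1, the inducible chaperone, was the 1 called of 18 heat shock genes and rose by 0.61 ± 0.09 (adjusted p = 0.00123).

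Of 20 iron deficiency response genes, 3 were called lower and none higher, with a median of -0.37. Over all genes tested, 4.51% were called lower and 3.2% higher. The count of 3 ran from 0, without the trend, to 9 over the alternatives. BHLH101, of the subgroup Ib regulators of iron uptake, had 43.14 and 61 in the triple mutant, against 153.6 and 133.1 in Col-0, and fell by 1.46 ± 0.25 (SE, adjusted p = 0.00436). FIT, the master regulator in roots, had 166.5 and 148.6 in the triple mutant, against 290.9 and 239 in Col-0. The FIT call was lost without Col-0 replicate 3 (adjusted p = 0.116) or triple mutant replicate 2 (0.102), and that of the third member, MYB10, without Col-0 replicate 4 (0.0896). PHO2, which limits phosphate uptake, was the 1 called of 9 phosphate starvation genes, with 2500 and 2564 in the triple mutant and 3551 and 3408 in Col-0, and fell by 0.46 ± 0.06 (adjusted p = 5.27e-04). Of 10 senescence genes, the chlorophyll breakdown genes PPH and PAO were called higher, by 0.36 ± 0.07 and 0.28 ± 0.06. Those calls were lost without Col-0 replicate 3 (0.0536, PPH), Col-0 replicate 4 (0.0509, PAO) or triple mutant replicate 1 (0.0699, PAO). In the endoplasmic reticulum stress list of 11 genes and the hypoxia list of 8, none was called in limma, with 2 and 0 at an unadjusted p under 0.05.

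The jmj24 libraries of the same table allowed the triple mutant to be set against jmj24 alone. Between the triple mutant and jmj24, 36 genes (0.152%) were called higher and 141 (0.594%) lower, 0.746% in all. Between jmj24 and Col-0, 330 (1.39%) were called higher and 339 (1.43%) lower, 2.82% in all. These comparisons share libraries, so their calls are not independent. The genes called lower in the triple mutant than in Col-0 had a median of -0.63 against Col-0 and -0.25 against jmj24, and in jmj24 a median of -0.31 against Col-0. The 177 calls became 34 without jmj24 replicate 1, 36 without jmj24 replicate 2, 68 without triple mutant replicate 2 and 73 without the trend, and 24 were made without any 1 library.

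AT3G05945 was the furthest below jmj24, with a log2 difference of -5.49 (adjusted p = 3.13e-08), ahead of ATX4 at -3.12 (1.44e-07). ATX4 was itself called higher in jmj24 than in Col-0 (log2 difference 1.245, adjusted p = 2.52e-04). It had 1175 and 1073 in jmj24, against 495.4 and 451.8 in Col-0. Between the triple mutant and Col-0 the ATX4 difference was -1.87 ± 0.12 SE. AT4G07820, also named after its values were seen, had 43.12 and 31.59 in the triple mutant, 310.8 and 263.1 in jmj24, and 369.3 and 312.6 in Col-0. Its log2 difference from jmj24 was -2.92 (adjusted p = 1.4e-05), and both calls held without any 1 library. HOL2 differed from jmj24 by -2.63 (adjusted p = 0.00251) and BAM6 by -2.27 (0.0141), but without jmj24 replicate 1 these calls were lost (0.0792 and 0.242), as they were without jmj24 replicate 2 (0.0607 and 0.152). PRR3 differed from jmj24 by -0.86 (adjusted p = 0.0013), where it had 618.6 and 608.7. NRPD1 was 0.88 higher than in jmj24 (adjusted p = 0.00632), a call lost without jmj24 replicate 1 (0.129), jmj24 replicate 2 (0.0607) or triple mutant replicate 2 (0.0672). Of the photosynthesis genes, 8 of 26 were called lower than in jmj24, beside 0.594% of all genes, with a median of -0.27. This count was 0 without the trend, and it fell without either jmj24 library or triple mutant replicate 2.

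Some genes stood nearer to Col-0 in the triple mutant than in jmj24. The DNA damage response list had no called member of 14 in the triple mutant against Col-0 in limma (3 at an unadjusted p under 0.05). In jmj24 against Col-0, 4 were called higher, beside 1.39% of all genes. In the triple mutant against jmj24, 3 were called lower, beside 0.594% of all genes, with a median of -0.53. That count of 3 was 0 without the trend. TSO2, a ribonucleotide reductase subunit, had 1325 and 1356 in the triple mutant, 2106 and 2226 in jmj24, and 1386 and 1413 in Col-0. PARP2, a poly(ADP-ribose) polymerase that responds to DNA breaks, had a log2 difference of -1.03 between the triple mutant and jmj24 (adjusted p = 7.32e-04), and TSO2 of -0.69 (2.28e-04). The triple mutant and jmj24 libraries were apart in both genes. XRI1, an X-ray-induced gene, differed by -0.73 (adjusted p = 0.0168), a call lost without jmj24 replicate 1 (0.0608), jmj24 replicate 2 (0.205), triple mutant replicate 1 (0.0667) or triple mutant replicate 2 (0.0902). PCC1 was 1.44 higher in the triple mutant than in jmj24 (adjusted p = 4.27e-04), though below Col-0 in both. CRA1, a cruciferin of seed storage, did not pass the test and varied between replicates, with 57.15 and 28.58 in the triple mutant, 364.1 and 85.61 in jmj24, and 5.365 and 7.056 in Col-0 (adjusted p = 0.454 between the triple mutant and jmj24). Of 18 seed genes tested, none was called against jmj24 in limma (6 at an unadjusted p under 0.05), and M17 was the 1 called against Col-0. M17 was at 0 in both Col-0 libraries and at least 1.59-fold higher in the triple mutant, a call lost without each of the 6 libraries (adjusted p from 0.0682 to 0.199).

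Of the genes called higher than in jmj24, LpxC1 had the largest difference, 3.27 (adjusted p = 0.0252), with 14.19 and 21.19 in jmj24. Its call was lost without jmj24 replicate 1 (0.396), jmj24 replicate 2 (0.18) or triple mutant replicate 2 (0.109), and its near-identical copies make it uncertain. CRK23 and CRK6, receptor-like kinase genes, were 3.11 and 1.89 higher than in jmj24, and HEMA3, a glutamyl-tRNA reductase gene of tetrapyrrole synthesis, was 2.33 higher. CRK6 had 86.24 and 57.07 in the triple mutant, 17.22 and 19.13 in jmj24, and 29.66 and 34.28 in Col-0. Among the falls, BR6OX1, a brassinosteroid synthesis gene, had 24.07 and 28.48 in the triple mutant, 83 and 73.53 in jmj24, and 47.76 and 49.41 in Col-0. CALS5, a callose synthase gene, differed from jmj24 by -2.44 and MES8, a methylesterase gene, by -1.82. Each of the calls of CRK23, CRK6, HEMA3, BR6OX1, CALS5 and MES8 was lost without jmj24 replicate 1 (adjusted p = 0.211 to 0.376), jmj24 replicate 2 (0.098 to 0.289) or triple mutant replicate 2 (0.0511 to 0.2), and all but that of CALS5 without triple mutant replicate 1 (0.0718 to 0.116).

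The atx4/5 libraries, with their own Col-0 and a separate normalisation, give a view of ATX4 and ATX5 loss that shares no library with the comparisons above. There, 24843 genes were tested, and 239 (0.962%) were called higher and 565 (2.27%) lower in atx4/5. Of the 1071 genes called lower in the triple mutant against Col-0, 263 were called lower in atx4/5, 24.6% of the first list and 46.5% of the second, and 12 were called higher. Of the 760 called higher, 55 were called higher in atx4/5, 7.24% of the first list and 23% of the second, and 6 were called lower. The same sign was met in atx4/5 in 791 of the 1071 and in 502 of the 760. Of the 141 genes lower in the triple mutant than in jmj24, 62 were called lower in atx4/5 (44% of the first list, 11% of the second), 121 had the same sign, and the median in atx4/5 was -0.53. Of the 36 higher, 3 were called higher in atx4/5 and 29 had the same sign. No share of same signs over all genes tested is given beside these counts. Across the 23548 genes tested in both tables, Pearson's r between the differences was 0.39 for the triple mutant against Col-0 and 0.196 for the triple mutant against jmj24, as a description across genes, which are not independent replicates.

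Gene by gene, HOL2 differed by -4.35 in atx4/5 against its Col-0 (adjusted p = 2.69e-05), FRUCT5 by -2.88 (3e-06), PRR3 by -1.52 (0.00302) and SHP1 by 2.27 (0.0037). PRR3 had a much lower level there, at 17.63 and 22.51 in atx4/5 and 51.13 and 68.41 in its Col-0. AGL72 differed by 3.66 (adjusted p = 6.12e-04) and QQS by -3.78 (2.27e-04). Other changes of the triple mutant were not called in atx4/5. NRPD1 differed there by 0.15 (adjusted p = 0.762), PCC1 by 0.55 (0.449), BHLH101 by -0.29 (0.684) and AT4G07820 by -0.77 (0.139). Since the tables were normalised apart, no difference between the triple mutant and atx4/5 was tested. The atx4/5 calls themselves numbered 804, and 361 to 455 without 1 library.

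**Figure D5:**
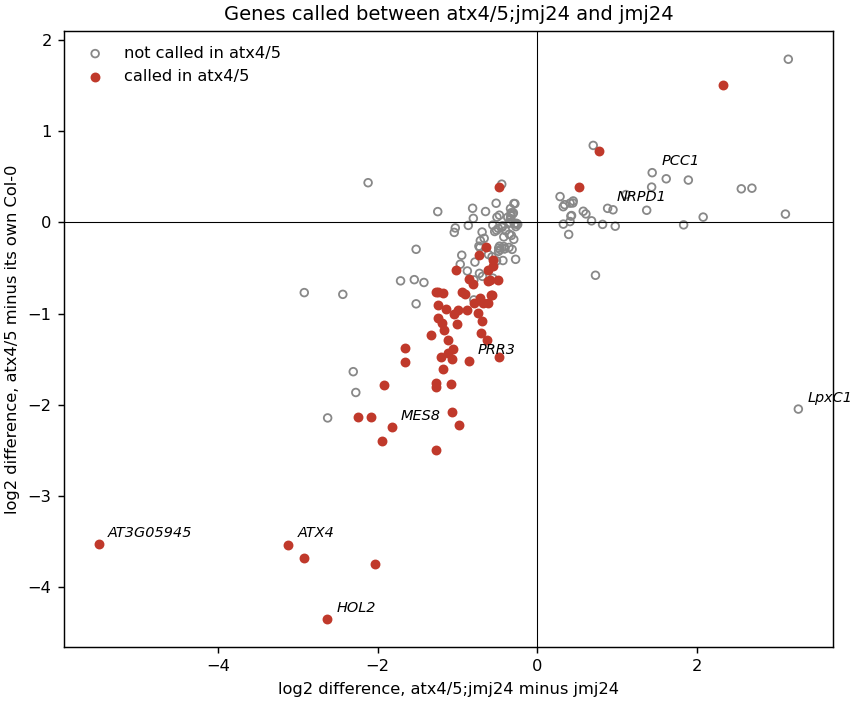
The 177 genes called between atx4/5;jmj24 and jmj24, with the log2 difference atx4/5;jmj24 minus jmj24 (across) and atx4/5 minus its own Col-0 from the separate table (up). Filled points are also called in atx4/5, and NRPD1, PCC1 and LpxC1 are among the open points. Of the 141 genes lower than in jmj24, 121 are lower in atx4/5 too, with no share over all genes tested given beside this count.

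The surroundings of the mutated genes were compared with the genome at large. Within 50 kb, 2 of 30 tested genes around ATX4 were called (6.67%), 3 of 21 around ATX5 (14.3%) and 0 of 26 around JMJ24. Within 1000 kb the shares were 6.62%, 5.29% and 7.05%, beside 7.71% of all genes. The 5 called neighbours, named after their values were seen, were BGLU9, BGLU10, FOP1, AT5G53490 and AT5G53500. Genes called in the same direction in 3 or more neighbouring positions formed 12 runs, 10 lower and 2 higher. No expected number of runs is given, so nothing is read from the count. The run of AT4G13495, MIR5026 and MIR850 lay within the span of AT4G13495 (chr4:7842967-7846774), so its members may share reads. In 1 run, on chromosome 1, SLAH4 and SLAH1, anion channel genes, and AT1G62290 had differences of -2.53, -1.03 and -1.58. The SLAH4 and AT1G62290 calls were lost without triple mutant replicate 1 (adjusted p = 0.111 and 0.0857) or triple mutant replicate 2 (0.0639 and 0.102), that of SLAH1 without Col-0 replicate 4 (0.0911) or triple mutant replicate 2 (0.0895), and that of SLAH4 also without Col-0 replicate 3 (0.179).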

How the data were processed

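Normalised read counts per gene, a signal value, were deposited by the authors in 1 table of 6 libraries and 1 of 14. Per the submitters' processing notes, HISAT2 2.2.0 and edgeR (no version) were used with TAIR10; the counter, strand and filters are not given in the sources used here. By their pattern the deposited signal values are reads adjusted to a common library size within a table, so they are not whole reads, and no count model was run on them. Genes were matched to the TAIR10.1 annotation (32548 of 32548). The scale was log2(value + 1), on which changes of low genes look smaller than they are, and genes with at least 1 in 2 columns were kept. With R 4.3.3 and limma 3.58.1 (statmod 1.5.0), 1 model per table covered its groups, with a trend and the robust option, and p-values were adjusted by Benjamini-Hochberg over all genes tested. Called means an adjusted p under 0.05, and all p-values printed are limma's adjusted ones. With 2 libraries against 2, an exact permutation test cannot go below 0.333. The scripts were tested on simulated data. Depth was estimated from the spacing of low values, and a value of 10 rests on about 10 reads.

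The comparison, the 28 gene lists and the rules were chosen with earlier results of these data known. Genes named by rule were ATX4, ATX5, JMJ24, FLC, FT and IBM1, the 15 largest called rises and 15 largest called falls with a symbol, groups apart and 10 or more on average in the higher group, up to 4 called members per list and direction (or the 2 most expressed), and the 6 largest called differences from jmj24 each way. Not all of them are described. List members outside that rule (MAM1, PR1, CRA1, PARP2 and XRI1), LpxC3, the called neighbours and runs, and the genes so marked were chosen after their values were seen. Of 437 list entries, 12 were not tested. Alternatives changed the pseudocount, filter, scaling, trend, robust option, groups fitted, replicate block and each library in turn.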

Additional observations from a re-analysis of the deposited data

How the results depend on the processing

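With 2 libraries a group, the calls rest on the spread that limma pools over genes and groups, and the trend setting moved them most. Without the trend, 209 genes were called between atx4/5;jmj24 (the triple mutant) and Col-0 (153 of them among the 1831), 73 between the triple mutant and jmj24, 77 between jmj24 and Col-0, and 416 between atx4/5 and its Col-0. Without the robust option, 50 were called between the triple mutant and jmj24 and 359 between jmj24 and Col-0. Leaving out 1 library at a time gave 889 to 1412 calls between the triple mutant and Col-0, 34 to 213 between the triple mutant and jmj24, 178 to 740 between jmj24 and Col-0, and 361 to 455 between atx4/5 and its Col-0. With only the 2 groups fitted, atx4/5 had 86 calls. The labels do not state whether replicate numbers pair the samples, and the triple mutant and Col-0 share none. The correlation of same-numbered deviations was 0.226 in the first table. It was 0.007 to 0.392 over 21 pairs of groups in the other, so above 0 in each, and pairing was not tested further. With the replicate block, 2206 genes were called between the triple mutant and Col-0, 252 between the triple mutant and jmj24, and 1357 between atx4/5 and its Col-0. The causes were not tested, beyond the fewer samples of the reduced fits. Between the triple mutant and Col-0, pseudocounts of 0.5 and 5, both filters and both scalings gave 1758 to 1964 calls. The direction reversed in 7 uncalled genes near 0. Without 1 library, BIP2 ranged over log2 differences of -0.061 to 0.029, CLV1 of -0.115 to 0.14, FT of -0.487 to 0.013, SUS4 of -0.065 to 0.279, SWN of -0.013 to 0.064, ADH1 of -0.244 to 0.036 and HTA9 of -0.029 to 0.081. BIP2 had 0.016 with equal totals and 0.017 with quantile normalization, and CLV1 -0.015 with quantile normalization. ATX5 was called higher with equal totals (0.37, adjusted p = 0.0428 in limma).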
